A study of Mus musculus with 2 samples.

Results

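Granzymes and the other cytotoxic effectors of lung lymphocytes were followed across the cell types of GFI1 KO and WT mouse lung. The set was put together by function, with earlier results of these data known, and holds 8 of the 33696 genes in the files: the granzymes Gzma (ENSMUSG00000023132), Gzmb (ENSMUSG00000015437), Gzmk (ENSMUSG00000042385) and Gzmm (ENSMUSG00000054206), the pore-forming protein Prf1 (ENSMUSG00000037202), the death ligand Fasl (ENSMUSG00000000817), the granule membrane protein Nkg7 (ENSMUSG00000004612) and the granule proteoglycan Srgn (ENSMUSG00000020077). All 8 were detected in both libraries.

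Cytotoxic lymphocytes kill by releasing granules onto a target cell. Perforin opens the way for granzymes, serine proteases that cleave substrates inside the target, while Fas ligand engages the death receptor Fas at the cell surface. Serglycin packs the cargo of the granule and is made by many blood cells, and NKG7 aids the release of granules. NK cells can hold granzyme transcripts before they meet a target. The counts here are of transcripts and do not measure protein.

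The study measured single cells of the lung from adult C57BL6/J mice that carried a germline loss of GFI1, a transcriptional repressor of blood cell development, and from their wild-type counterparts. Lung cells were sorted as live cells, labelled with 18 antibody tags and profiled by 10x 3′ sequencing, in which each captured transcript end is counted once as a unique molecular identifier (UMI). One library labelled GFI1 KO and 1 labelled GFI1 WT were analysed here, each labelled as coming from a mouse numbered 1, and the duplicates that the methods mention were not analysed here. The loss is germline, so every cell type carries it, and with 1 library per label the genotype cannot be told apart from other differences between the libraries.

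The libraries held 10700 (GFI1 KO) and 19515 (WT) barcodes, of which 10495 and 19342 passed the filters, with a median of 11076 and 6217 UMIs per kept cell. The 2 libraries shared 74 barcode sequences. Gfi1 itself was at 3.598 CPM (95% interval 3.226 to 4.002) in the KO library and 3.465 (3.159 to 3.793) in the WT library, and these 3′ end counts do not check the labels, since a transcript can be counted where the protein is lost. Levels are UMIs of a gene per 1000000 UMIs of the cells of a class (CPM), without ribosomal, mitochondrial and predicted (Gm-named) genes and without scaling to gene length. All intervals are 95% and cover counting error only, and with 1 library per label no test of a difference was possible. A gene was counted as higher or lower when its KO to WT ratio of CPM reached 2-fold with at least 30 UMIs over both libraries, in classes with at least 30 cells in each.

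The promoters of Gzma, Gzmb and Gzmk are shown because the granzyme results turn on these genes. Each runs from 250 bases before to 50 bases after the RefSeq start, on the minus strand of GRCm38.p6, which is not the build of the files (GRCm39). Gzma lies at chr13:113100932-113101231, Gzmk at chr13:113180916-113181215 and Gzmb at chr14:56262285-56262584. Capitals mark the letters TGTGGT or ACCACA, the core bound by RUNX factors on either strand, and GTGTGA or TCACAC, a half-site of T-box factors such as T-bet and Eomes.
Gzma: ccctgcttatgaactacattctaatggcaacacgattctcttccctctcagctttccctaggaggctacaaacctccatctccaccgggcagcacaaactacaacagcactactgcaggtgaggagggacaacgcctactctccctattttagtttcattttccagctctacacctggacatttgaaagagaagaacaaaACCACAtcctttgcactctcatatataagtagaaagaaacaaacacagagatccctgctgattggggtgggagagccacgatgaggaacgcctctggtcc
Gzmb: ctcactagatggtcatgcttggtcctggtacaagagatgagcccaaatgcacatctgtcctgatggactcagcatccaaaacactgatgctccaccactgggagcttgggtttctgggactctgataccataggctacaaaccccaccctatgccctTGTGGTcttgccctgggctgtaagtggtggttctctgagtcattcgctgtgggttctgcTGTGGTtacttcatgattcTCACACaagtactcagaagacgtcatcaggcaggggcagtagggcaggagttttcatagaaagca
Gzmk: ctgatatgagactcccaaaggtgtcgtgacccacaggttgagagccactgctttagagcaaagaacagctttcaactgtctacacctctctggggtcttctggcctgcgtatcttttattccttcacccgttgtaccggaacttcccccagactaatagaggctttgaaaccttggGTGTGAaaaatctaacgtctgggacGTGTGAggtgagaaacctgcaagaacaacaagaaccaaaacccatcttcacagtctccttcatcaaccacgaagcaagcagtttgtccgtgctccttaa
Gzma held 1 match to the RUNX core and none to the T-box half-site, Gzmb held 2 and 1, and Gzmk held 0 and 2. Of 32851 RefSeq promoters of the same length, 16.8% held the RUNX core and 14.5% the T-box half-site. The letters AAATCA or TGATTT, a piece of the longer site recognised by GFI1, were present in 13.997% of promoters and in none of these windows. The shorter letters AATC or GATT within them do occur in each of these windows, so a GFI1 site is not shown to be absent. A match is a description of letters in a window and no evidence of binding.

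Before any comparison, the classes were checked against markers that include none of the 8 genes. The NK-like cluster expressed all 8 NK markers, with Cd3e UMIs in 0.459% (KO) and 0.246% (WT) of its cells, and its median NK1.1 tag counts were 73 and 28. It held 218 KO and 2033 WT cells, or 2.08% (1.81 to 2.37) and 10.5% (10.1 to 10.9) of all cells. CD8-like T cells numbered 381 and 1190 and fell into naive-type (113 and 942), memory-type (205 and 108) and effector-type clusters (63 and 140). Cells of the T cell compartment with a Trdc UMI, a CD3 UMI and no Cd4 or CD8 UMI numbered 87 and 103. The basophil-like cluster held 19 and 15 cells. All 8 basophil markers were raised over the cluster as a whole, but not every cell held each of them. Mcpt8 was read in 17 KO and 8 WT cells, and Fcer1a in 17 and 11.

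NK-like cells carried the highest Gzma level of the classes listed here in both libraries, and Gzma was close to equal between them. It stood at 9501 CPM (9313 to 9692) in KO and 10221 (10150.4 to 10292.1) in WT cells, a ratio of 0.930 (0.910 to 0.949). Prf1 (1330 and 1463 CPM), Gzmb (1035 and 1143 CPM) and Fasl (331 and 375 CPM) were likewise within 0.881 to 0.909 of the WT level. Nkg7 was at 3201 and 2800 CPM, a ratio of 1.14 (1.10 to 1.19), and Srgn at 731 and 833 CPM, a ratio of 0.877. With each library clustered on its own both turned, to a log2 ratio of -0.07 for Nkg7 and 0.31 for Srgn. Gzmm, at 8.80 and 10.3 CPM, was scarce. The summed granzymes reached 10618 and 11376 CPM, a ratio of 0.933 (0.915 to 0.952).

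Gzmk, whose product has trypsin-like activity, was the exception. It was read 75 times in 33 of the 218 KO NK-like cells, and 19 times in 19 of the 2033 WT cells. The levels were 73.4 CPM (57.7 to 92.0) and 2.43 CPM (1.46 to 3.79), and the KO to WT ratio was 30.2 (18.1 to 53.0). No single cell carried it: the highest KO cell held 7 UMIs, and the ratio without the highest cell of each library was 29.2 (17.2 to 52.1). With every cell thinned to 1500 UMIs, 7.62% (4.42 to 12.1) of KO and 0.455% (0.208 to 0.862) of WT NK-like cells had a Gzmk UMI, against 15.1% and 0.935% without thinning, at median depths of 5512 and 4177 UMIs. B-like cells, which should lack granzymes, held 0 Gzmk UMIs in KO and 1 in WT cells. Among 9894 genes tested in NK-like cells, 3.85% were higher and 7.34% lower in the KO library, and of the 8 effectors 1 was higher and 0 were lower. Their median log2 ratio was -0.14, beside -0.06 over all genes tested.

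**Figure D1:**
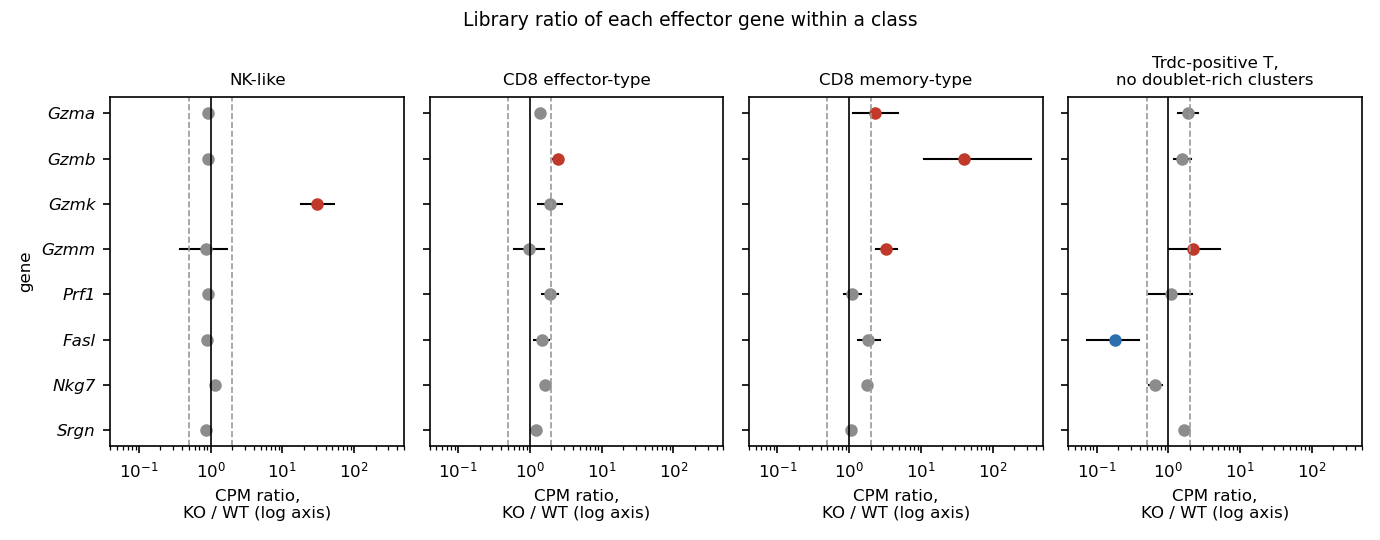
Ratio of the GFI1 KO to the WT level (CPM, log axis) of each effector with at least 30 UMIs, with 95% counting intervals, in 4 cell classes. Dashed lines mark 2-fold in either direction, red points lie at least 2-fold higher and blue points at least 2-fold lower in the KO library. In NK-like cells 7 of 8 genes lie near 1 and Gzmk lies at 30.2, while in the CD8 panels most genes lie above 1.

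The Gzmk-positive KO NK-like cells were described further, from genes and tags picked after their values were seen. Their median depth was 7773 UMIs, against 5288 in the other KO NK-like cells. The median KLRG1 tag count, not scaled to depth, was 69 against 36, and that of NK1.1 was 64 against 75. Ncr1 was at 364 against 589 CPM. The Gzmk-positive cells held 0 Cd3e UMIs. Gzmb was at 836 CPM against 1084 in the rest. Genes linked to NK cell maturity gave no single direction. Cd27, a receptor of the less mature NK cells, was at 256 against 133 CPM, and Zeb2, a transcription factor of terminal maturation, at 285 against 534 CPM. Il7r, also of less mature cells, was at 19.7 against 91.6 CPM, Klrg1 at 261 against 167 CPM, Tcf7 at 93.4 against 89.1 CPM and Eomes at 393 against 383 CPM. Among further genes read, Ly6c2 was at 29.5 against 264 CPM and Cma1 at 197 against 304 CPM. Xcl1 was at 359 against 217 CPM and Ctla2a at 1165 against 744 CPM. From the lowest to the highest KLRG1 tertile of WT cells, described below, Ly6c2 and Cma1 rose and Xcl1 and Ctla2a fell. In KO cells Ly6c2 fell as well. Since Gzmk chose these cells, the values are descriptive.

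The effectors of NK-like cells also varied with the KLRG1 antibody tag, a surface receptor gained as NK cells mature. Each library was split into tertiles by the tag (72 cells per outer tertile in KO, 677 in WT). In WT cells Gzma went from 7850.2 CPM in the lowest tertile to 11958 in the highest, and in KO cells from 8125 to 10206 CPM. Gzmb went from 770.4 to 1439.7 CPM in WT and from 871 to 1149 in KO cells, and Prf1 from 1136 to 1672 and from 1247 to 1429. In both libraries the 3 genes were higher where the tag was higher. Gzmk did this in KO cells, at 18.2 CPM (6.66 to 39.5) against 110 (77.8 to 151), whereas in WT cells it stood at 2.82 and 3.09 CPM. Gzmm went the other way, from 14.9 to 5.50 CPM in WT cells, and from 12.1 CPM on 4 UMIs to 2.89 on 1 UMI in KO cells.

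**Figure D2:**
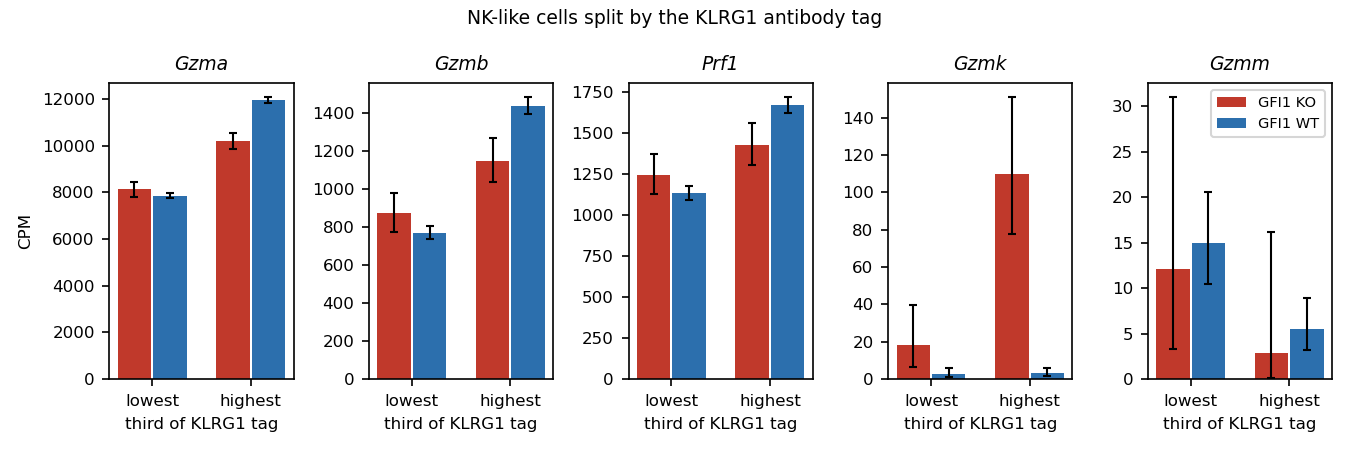
Level (CPM) of 5 effectors in NK-like cells of the lowest and highest tertile of the KLRG1 tag, by library, with 95% counting intervals. Gzma, Gzmb and Prf1 are higher in the highest tertile of both libraries, and Gzmk stands apart in the KO library, at 110 CPM in the highest tertile.

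Gzma was read in nearly every NK-like cell. In cells thinned to 1500 UMIs its median was 14 UMIs in KO and 15 in WT NK-like cells, and the 90th percentile was 27 in both. Gzma was seen in 95.7% and 97.8% of thinned cells, Nkg7 in 99.0% and 95.6%, Prf1 in 78.6% and 83.1%, Gzmb in 71.0% and 66.7%, and Fasl in 35.7% and 39.4%. In B-like cells Gzma was seen in 0.463% and 1.19%. Gzmb was found in 1318 of 1936 WT cells with a Gzma UMI and in 2 of 43 without one, and in 146 of 201 and 3 of 9 KO cells. Srgn was found in 65.8% of WT cells with a Gzmb UMI and in 65.3% of those without.

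**Figure D3:**
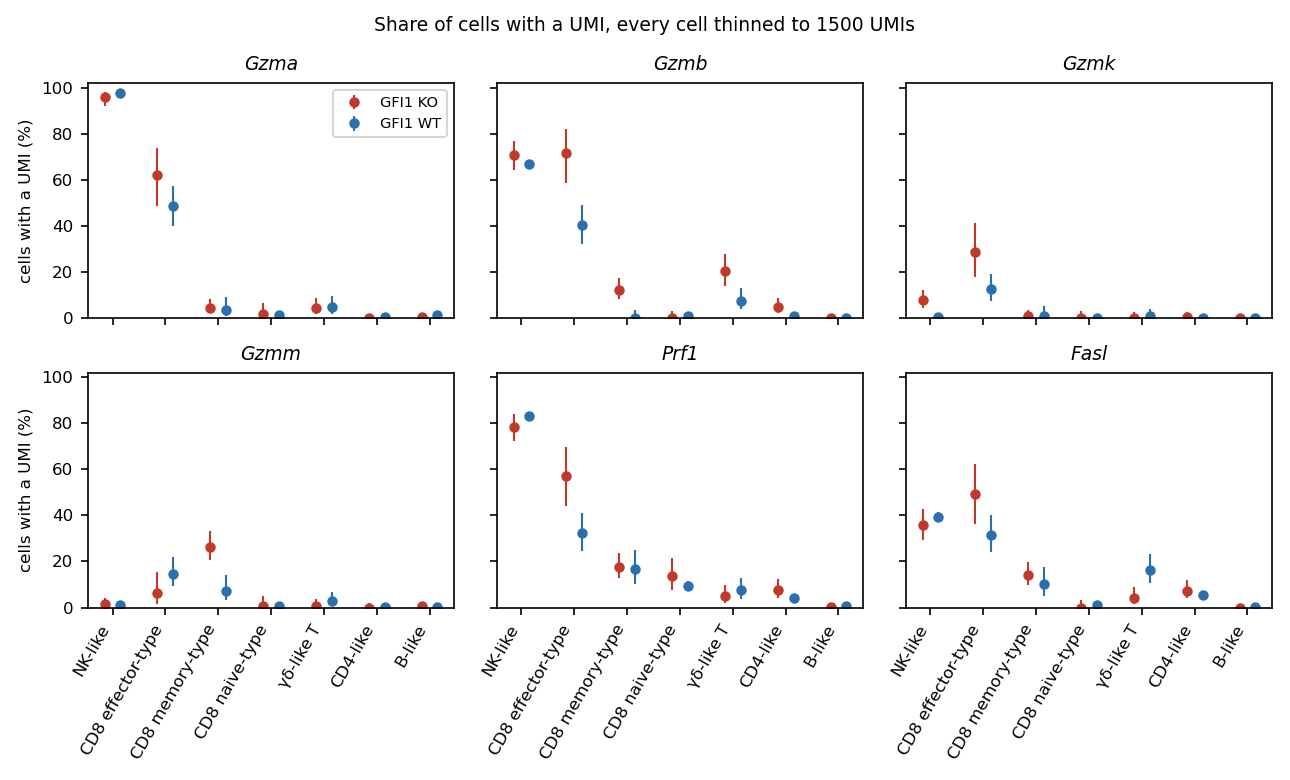
Share of cells (percent) with a UMI of 6 effectors in 7 cell classes, each cell thinned to 1500 UMIs, with exact Clopper-Pearson 95% intervals, GFI1 KO in red and WT in blue. NK-like cells are near 100 percent for Gzma in both libraries, and the Gzmb share of CD8 effector-type cells is 71.4% in KO and 40.4% in WT.

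CD8-like T cells were richer in effectors in the KO library, and 2 things moved together: the mix of subsets and the level within them. Naive-type cells made up 29.7% (25.1 to 34.5) of KO and 79.2% (76.7 to 81.4) of WT CD8-like cells, and memory-type cells 53.8% (48.7 to 58.9) and 9.08% (7.50 to 10.9). Over all CD8-like cells the granzymes summed to 887 CPM in KO and 376 CPM in WT, a ratio of 2.36 (2.21 to 2.52). With the mix of subsets held equal, the sums were 702 and 398 CPM. The equal mix took Gzmm from 144 and 23.3 CPM to 69.5 and 31.5 CPM, and Gzmb from 261 and 69.1 to 201 and 71.3 CPM.

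CD8 effector-type cells, with high KLRG1 tag counts (medians 37 and 27), held the highest CD8 levels of Gzma, Gzmb, Gzmk, Prf1, Fasl and Nkg7. Gzmb was at 1418 CPM in KO and 574 in WT cells, a ratio of 2.47 (2.12 to 2.88), and was seen in 71.4% (58.7 to 82.1) and 40.4% (32.1 to 49.2) of thinned cells. Prf1 was at 476 and 248 CPM (ratio 1.92, 1.49 to 2.47), Gzmk at 215 and 113 CPM (1.89, 1.29 to 2.77), and Gzma at 3249 and 2337 CPM (1.39, 1.27 to 1.52). Fasl and Nkg7 had ratios of 1.47 and 1.65. Gzmm did not take part, at 109 and 112 CPM. Of 4964 genes tested, 2.68% were higher and 6.37% lower in the KO library, and of the 8 effectors 1 was higher and none lower. Their median log2 ratio was 0.64, beside -0.06 over all genes. The clusters were formed without these genes.

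Memory-type CD8 cells, marked by Ly6c2, Il2rb and Eomes, showed another pattern. Gzmb was read 140 times in 45 of 205 KO cells and 2 times in 108 WT cells, or 125 and 3.10 CPM, a ratio of 40.5 (11.009 to 338). After thinning, 12.3% (8.09 to 17.6) of KO cells and 0 of 108 WT cells had a Gzmb UMI, which allows a WT share of up to 2.78%. Median depths were similar, at 8580 and 9166 UMIs. Gzmm, scarce in NK-like cells, was the leading granzyme here, at 212 and 65.0 CPM (ratio 3.27, 2.34 to 4.65). Gzma was at 38.5 and 17.03 CPM on 43 and 11 UMIs, a ratio of 2.26 (1.15 to 4.87), and Nkg7 at 1264 and 715 CPM. Prf1 (134 and 121 CPM) and Srgn (1054 and 997 CPM) had ratios of 1.11 (0.841 to 1.48) and 1.06 (0.959 to 1.17). Of 7039 genes tested, 3.76% were higher and 2.13% lower, and 3 of the 7 effectors tested were higher. The median log2 ratio was 0.88, beside -0.01 over all genes.

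Naive-type CD8 cells were low in granzymes. Gzma was at 30.4 CPM in KO and 10.8 CPM in WT cells, on 15 and 43 UMIs, and Gzmk had no UMI, which allows up to 6.09 and 0.750 CPM. Prf1 was at 99.4 and 65.0 CPM, Nkg7 at 432 and 379 CPM, and Srgn at 1262 and 1034 CPM. Naive-type cells thus held Nkg7 and Srgn transcripts beside few granzyme transcripts.

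**Figure D4:**
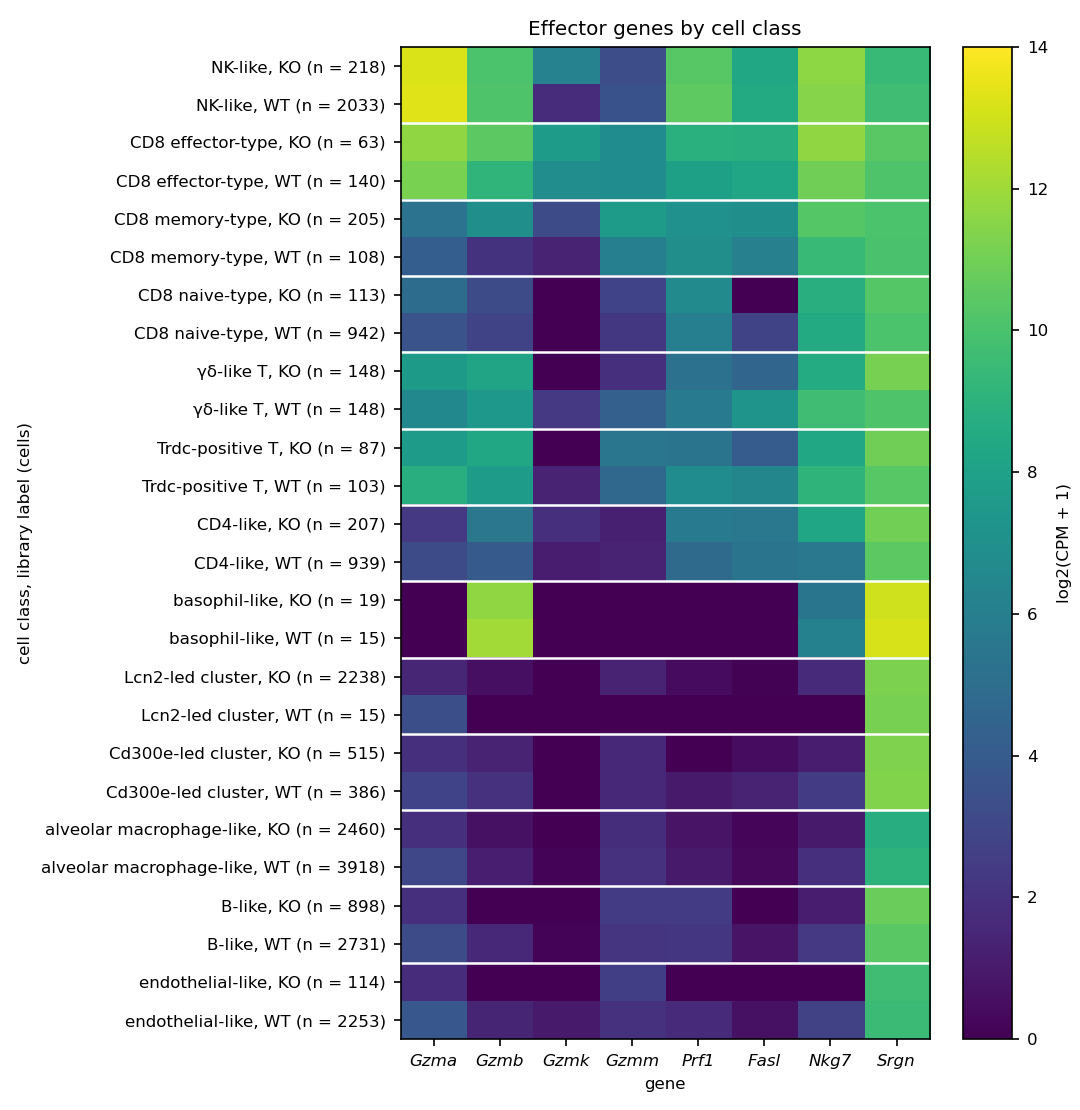
Level of the 8 effectors, log2(CPM + 1), in each cell class of the GFI1 KO and WT libraries. Gzma, Prf1 and Nkg7 are highest in NK-like and CD8 effector-type cells, Gzmb also in basophil-like cells, and Srgn is spread over lymphoid and myeloid classes.

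Trdc-positive T cells, which include gamma-delta T cells, gave values that rested on few cells. As measured, the granzymes summed to 575 CPM in KO and 693 CPM in WT cells, a ratio of 0.830 (0.712 to 0.966). Gzma (215 and 454 CPM), Prf1 (41.4 and 111 CPM) and Fasl (15.8 and 86.4 CPM) were lower in the KO library. Of 6289 genes tested 8.95% were higher and 11.4% lower, and of the 7 effectors tested 0 were higher and 3 lower. However, 15 of the 103 WT cells lay in clusters with at least 50% doublet calls and held 214 of the 273 Gzma UMIs. Outside those clusters (80 KO and 88 WT cells) Gzma was at 256 and 138 CPM, a ratio of 1.86, and 81 of the 108 KO UMIs came from 1 cell. Without the highest cell of each library Gzma was at 66.5 and 64.4 CPM, a ratio of 1.03 (0.583 to 1.83).

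The Trdc-positive cells came from different clusters in each library: 59 KO and 2 WT cells lay in a cluster led by Il17a and Scart1, and 3 KO and 55 WT cells in the other gamma-delta-like cluster. A further 5 KO and 19 WT cells lay in an unnamed T cell cluster led by Il23r. Another 13 KO and 3 WT cells lay in the CD8 memory-type cluster and are counted in both classes. Outside the doublet-rich clusters Fasl was at 19.0 CPM in KO and 105 CPM in WT cells, in 7 of 80 and 22 of 88 cells, a ratio of 0.181 (0.0737 to 0.388). The 2 gamma-delta-like clusters differed in Fasl level, and the part of the mix of clusters in this ratio was not tested. Over all cells of the Il17a-led cluster Fasl was at 6.43 CPM in KO cells (4 UMIs), and over all cells of the other it was at 131 CPM (67.5 to 228) in 14 KO and 149 CPM (122 to 179) in 145 WT cells. Gzmb was at 340 and 217 CPM, a ratio of 1.57 (1.197 to 2.055). It was seen in 35 of 80 KO cells (43.8%, 32.7 to 55.3) and 9 of 88 WT cells (10.2%, 4.78 to 18.5), where 79 of the 93 WT UMIs came from 1 cell. Without the highest cell Gzmb was at 290.7 and 33.3 CPM. Nkg7 was at 404 and 611 CPM and Srgn at 1985 and 1220 CPM. Prf1 was at 47.5 and 44.3 CPM and Gzmk had 0 UMIs. Gzmm was at 52.2 and 23.3 CPM on 22 and 10 UMIs, a ratio of 2.24 (1.02 to 5.30). Without the highest cell Gzmm was at 36.5 and 18.8 CPM. At the 2-fold cutoff Gzmm was thus higher and Fasl lower outside the doublet-rich clusters. The share over all genes was not taken for these cells.

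The gamma-delta-like clusters held 148 cells in each library, but of different kinds. The Il17a-led cluster held 134 KO and 3 WT cells, and the other held 14 and 145. The Il17a-led cluster had 7 of 7 gamma-delta markers raised. The other had only 3 of 7, beside 6 of 7 CD8 markers, so its name is less sure. An unnamed T cell cluster led by Il23r (12 KO and 86 WT cells) had 6 of 7 gamma-delta markers raised and is not included here. Its leading genes also included Trgc1, Trgc2, Scart2 and Il17re. The gamma constant genes did not count as markers, since the marker list held them under other symbols. Whether this left the cluster unnamed was not tested. The 148 cells of each library may therefore leave out gamma-delta T cells, most of them from the WT library. In both clusters together Gzmb was at 283 and 174 CPM, and after thinning it was seen in 20.3% (14.02 to 27.8) of KO and 7.43% (3.77 to 12.9) of WT cells. Fasl was at 22.4 and 148 CPM, Nkg7 at 385 and 829 CPM, and Srgn at 2278 and 1121 CPM. The kind of gamma-delta-like cell and the library cannot be told apart in these values.

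CD4-like T cells had few granzyme transcripts outside a cluster marked by Foxp3, the factor of regulatory T cells, which held 113 KO and 193 WT cells. In that cluster Gzmb was at 82.5 and 53.5 CPM and was seen in 13 cells of each library. Nkg7 was at 573 and 188 CPM there, and Gzmm at 0 in both. In the remaining CD4-like cells (94 and 746) Gzmb had 0 UMIs in KO cells, which allows up to 8.99 CPM, and 9 in WT cells, or 3.13 CPM. The Foxp3 cluster thus made up a larger share of the CD4-like cells of the KO library, and over all of them Gzmb was at 45.6 and 14.5 CPM.

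Of the 8 effectors, Gzmb and Srgn stood at high levels in basophil-like cells, of which 0% (KO) and 13.3% (WT) were called doublets. Gzmb was at 3273 CPM (2915 to 3663) in 14 of 19 KO cells and 4334 CPM (3865 to 4846) in 11 of 15 WT cells, above the level in NK-like cells. The median cell held 8 and 10 Gzmb UMIs and the highest 55 and 138. Without the highest cell the levels were 2825 and 2746 CPM. Gzma, Gzmk, Gzmm, Prf1 and Fasl had 0 UMIs, which allows up to 32.4 CPM in KO and 42.1 CPM in WT cells, and Nkg7 had 4 and 5 UMIs. Srgn was at 8091 and 9005 CPM. Fewer than 30 cells per library were present, so no ratio was called.

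Among 16 other granule proteases, 5 had UMIs in basophil-like cells. Mcpt8, the basophil protease used as a marker, was at 2906 CPM in KO and 547 CPM in WT cells. Cpa3, a carboxypeptidase of mast cells and basophils, was at 810 and 1305 CPM, but 61 of the 93 WT UMIs came from 1 cell, and without the highest cell the order turned, to 729 and 514 CPM. Gzmc was at 130 CPM in 2 KO cells and 968 CPM in 6 WT cells. Without the highest cell it was at 11.4 and 791 CPM, and reads of this gene may be shared with its close relatives. The mast cell proteases Mcpt4, Tpsb2 and Tpsab1 had 0 UMIs in both libraries, and Cma1 had 1 UMI in each.

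Srgn, in contrast to the granzymes, was a transcript of many blood cells. It was at 11030 CPM in WT neutrophil-like cells (4186 CPM in the 9 KO cells), 2446 CPM in the 2238 KO cells of a cluster led by the granule genes Lcn2, Fcnb and Prtn3 beside Vcan and F13a1 (15 WT cells), 2496 and 2582 CPM in the 515 KO and 386 WT cells of a cluster led by Cd300e, 1760 and 1374 CPM in B-like cells and 423 and 520 CPM in alveolar macrophage-like cells. It was low in epithelial-like cells, at 46.4 and 147 CPM. The 30 class profiles, each of at least 30 cells, share 2 libraries, differ in depth and leave out the basophil-like cells. Over these profiles the correlation of Srgn with the other 7 effectors ran from -0.06 to 0.12. That of Gzma with Gzmb was 0.90 and that of Prf1 with Nkg7 was 0.96.

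The share of a library's transcripts that NK-like cells supplied depends on levels, on the number of cells and on what all other cells held. NK-like cells held 64.8% of the Gzma UMIs of the KO library and 83.1% of the WT library, 36.1% and 76.3% of Gzmb, and 59.5% and 81.0% of Prf1. UMIs were also counted in CD8-like, Trdc-positive, CD4-like, basophil-like, neutrophil-like, alveolar macrophage-like and B-like cells. The rest lay in classes not counted here and in unnamed clusters. For Gzma, Gzmb and Prf1 this rest was a larger share of the KO than of the WT library. CD8-like cells held 46.0% and 19.5% of Gzmm. Alveolar macrophage-like cells held 12.5% and 23.0% of it, more than CD8-like cells in the WT library, through many cells at a low level (2.52 and 2.98 CPM). That level was below the 4.69 and 3.32 CPM of B-like cells, which should lack granzymes. Macrophages are thus not shown to express Gzmm, and the origin of these UMIs was not tested. Basophil-like cells, at 0.181% of KO cells, held 10.3% of its Gzmb UMIs, and 2.63% in the WT library.

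By pattern over the 30 profiles, among 14591 genes, the genes most like Gzma (Pearson r of log2(CPM + 1)) were Klrb1c at 0.929, Gzmb at 0.902 and Eomes at 0.878. Those most like Prf1 were Nkg7 at 0.957, Ctsw at 0.933 and Eomes at 0.930. For Gzmb they were Fasl at 0.912, Ifng at 0.907 and Gzma at 0.902, and for Gzmk Ifng at 0.836, Heatr9 at 0.819 and Cldnd2 at 0.811. The profiles are of classes with at least 30 cells, so the basophil-like cells are not among them. Those cells held 303 (KO) and 309 (WT) Gzmb UMIs and 0 of Gzma, Prf1 and Fasl. The likeness of Gzmb to Gzma and Fasl therefore does not cover them. These are descriptions without a test.

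The wider cytotoxic programme was read from lists of granule and death genes. Over all genes tested in NK-like cells 3.85% were higher and 7.34% lower. In NK-like cells 22 granule machinery genes and inhibitors were tested, of which 0 were higher and 1 was lower. This was Serpinb9b, a serpin inhibitor, at 39.1 CPM in KO and 188 CPM in WT cells. Of 12 death ligands, receptors and cytokines, Ltb was higher (ratio 3.52) and Cflar, an inhibitor of death receptor signalling, lower (0.478). Of 10 regulators 0 were higher and Zeb2 was lower (0.482), with a list median of -0.40 beside -0.06 over all genes. Of the 2 other proteases tested, Gzmc was higher (3.83) and Cma1 had a ratio of 0.813. The Gzmc value rested on 10 UMIs in 4 KO cells, 6 of them in 1 cell, and 20 UMIs in 12 WT cells. Without the highest cell of each library Gzmc was at 3.93 CPM in KO and 1.66 CPM in WT cells.

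In memory-type CD8 cells, where 3.76% of all genes tested were higher and 2.13% lower, 0 of 19 machinery genes were higher or lower. Ifng was the 1 of 8 death and cytokine genes that was higher (ratio 3.53), and 4 of 10 regulators were higher, namely Zeb2, Id2, Prdm1 and Batf, with ratios of 2.89, 2.19, 2.23 (0.948 to 6.07) and 2.03. In effector-type cells 0 of 18 machinery genes and 0 of 10 regulators reached 2-fold, while Ltb was higher (2.14) and Casp8 lower (0.385) among 5 death genes. Over all genes tested there 2.68% were higher and 6.37% lower. In Trdc-positive T cells 2 of 20 machinery genes were higher and 5 lower, and 4 of 11 regulators were higher and 3 lower. Over all genes tested in this class 8.95% were higher and 11.4% lower. Stx11, a syntaxin needed for granule release, had a ratio of 4.09, Serpinb9, which protects against granzyme B, 0.398, and Irf4 10.9. These Trdc-positive values include the cells of the doublet-rich clusters, whose part in them was not tested. They also set unlike cells side by side, since 59 KO and 2 WT cells lay in the Il17a-led cluster and 3 and 55 in the other gamma-delta-like cluster. The part of this mix in the ratios was not tested.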

How the data were processed

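Lung cells of 1 GFI1 KO and 1 WT library were profiled by 10x 3′ sequencing with antibody tags. The deposited matrices hold UMI counts per gene and barcode, made by the authors with Cell Ranger 9.0.1 per the file headers, on builds GRCm39 and mm39 per the submitters' processing notes, without normalization. Cells with at least 500 UMIs, at least 200 genes and at most 20% mitochondrial UMIs were kept. The libraries held 116825535 (KO) and 162599284 (WT) gene UMIs. Ribosomal, mitochondrial and Gm-named genes (9538) were left out.

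The 2 libraries were clustered together with scanpy 1.11.5 and leidenalg 0.10.2 (2000 variable genes, 50 principal components, 15 neighbours, resolution 0.8), with 52 effector genes withheld from the variable genes, and the T cell clusters were clustered again. A cluster was named from at least 3 markers that were raised 1.5-fold and seen in at least 5% of its cells (1.2-fold for CD8 subsets). These naming thresholds were chosen after the clusters were seen. Both clusters with monocyte markers were kept apart and called by their leading genes, since granule genes led one of them. Scrublet marked 3.41% and 5.92% of cells as doublets, which were kept in the main values and left out as an alternative. Levels were summed per class and library, with exact Poisson, Clopper-Pearson and conditional binomial 95% intervals. Shares of cells were taken after thinning to 1500 UMIs, and genes with 0 UMIs were given the limit of 3 counts. PCR duplicates were already collapsed by UMI, and intervals and limits cover counting error only.

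All 8 effectors were named, with list genes by the largest log2 ratio among genes with at least 30 UMIs. The members and lists were chosen with earlier results of these data known. The ratio step was tested on simulated NK-like counts of 9886 genes, where 98.0% of the changed genes were recovered and 3.06% of the unchanged genes were called. These counts were drawn from a shared profile with counting error only, and every planted change was larger than the 2-fold cutoff. The figures therefore check the computation and give no error rate for the KO and WT libraries. Promoter sequences are from RefSeq on GRCm38.p6, and all 8 genes matched. Alternatives covered doublets, resolution, clustering of each library alone, single-cell gates, scaling, cell filters, free RNA and depth. Values were computed with Python 3.11.15, numpy 2.4.6, scipy 1.17.1 and R 4.3.3.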

Additional observations from a re-analysis of the deposited data

Results flagged for a closer look

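Effector transcripts were also read in 2 clusters that could not be named and that entered no comparison. In a cluster led by cell cycle genes (260 KO and 405 WT cells) Gzmb was at 147 CPM in the KO library and 72.9 CPM in the WT library, and Gzmk at 13.3 and 5.65 CPM. The other effectors are not given for this cluster. A Cd3e UMI was read in 15.6% of its cells, and 7 of 8 T cell and 5 of 8 CD4 markers were raised. The other cluster was led by Cd209a and Mgl2 (103 and 315 cells, 22.0% doublet calls). Of its cells 22.7% had a Cd3e UMI, and 4 of 7 CD8 markers were raised. The share of all genes higher in the KO library was not taken for either cluster, so their effector values have no background. In the cluster led by Cd209a Gzma was at 649 against 233 CPM, Gzmb at 117 against 23.2 CPM and Gzmm at 34.3 against 2.01 CPM. Prf1 was at 115 against 38.1 CPM, Fasl at 35.2 against 10.0 CPM and Nkg7 at 380.0 against 103 CPM. Gzmk was at 12.01 CPM on 14 UMIs against 0 UMIs, which allows up to 0.859 CPM, and Srgn was at 2126 against 2374 CPM. The part of doublets and of admixed lymphocytes in these values was not tested.

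Gzma went in opposite directions in 2 classes. Its KO to WT ratio was 2.26 (1.15 to 4.87) in CD8 memory-type cells and 0.473 (0.375 to 0.593) in Trdc-positive T cells. The difference was not tested. The memory-type ratio rested on 43 and 11 UMIs. After thinning, Gzma was seen in 4.41% (2.04 to 8.21) of KO and 3.70% (1.02 to 9.21) of WT memory-type cells. The value in Trdc-positive T cells turned to 1.86 outside the doublet-rich clusters. The classes share 13 KO and 3 WT cells.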

How the results depend on the processing

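The granzyme sum in NK-like cells had a log2 KO to WT ratio of -0.10. It was -0.13 without doublet calls, -0.16 at resolution 1.2, -0.38 with each library clustered alone, -0.17 with single-cell gates, -0.19 over UMIs of all genes and -0.026 after thinning. In CD8-like cells the log2 ratio was 1.24, with 1.05 when clustered alone, 0.90 with gates, 1.45 after thinning and 0.82 at an equal mix of subsets. In Trdc-positive T cells the sum was at -0.27 and its sign changed: 0.75 without doublet calls, 0.079 after thinning, 0.78 outside doublet-rich clusters and 0.73 in the gamma-delta-like clusters, against -0.83 when clustered alone, -0.73 with effector genes among the variable genes, -0.83 with no cell filter and -1.39 with gates. Gzma in these cells, at -1.08, became 0.87 without doublet calls, 0.90 outside doublet-rich clusters and 1.06 in the gamma-delta-like clusters, and Prf1, at -1.43, became 0.10 outside doublet-rich clusters. In NK-like cells clustered alone, Nkg7 turned from 0.19 to -0.07 and Srgn from -0.19 to 0.31. Gzmb in Trdc-positive T cells ran from 0.23 to 1.64. Gzmk in NK-like cells stayed between 4.68 and 5.17. The equal mix, the doublet-rich clusters, the gamma-delta-like clusters and the omission of the highest cell were chosen after seeing the data. At a fold of 1.5, or at least 10 UMIs, the counts of genes in NK-like cells were 1208 and 709 higher and 1784 and 1209 lower, in memory-type cells 904 and 626 higher and 743 and 410 lower, in effector-type cells 549 and 452 higher and 994 and 852 lower, and in Trdc-positive T cells 1293 and 1052 higher and 1421 and 1320 lower, by construction. With log2(CPM + 10), 1 of the 3 genes most like Gzmk was shared. No paired analysis was possible because each label has 1 library, and no replicate could be left out. Depth limits Gzmk, Gzmm and the basophil-like values, which rest on few UMIs or cells.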
